A study of Homo sapiens with 8 samples.

Results

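The HOX genes read here are 38 of the homeobox genes whose symbols join HOX, a cluster letter from A to D and a paralogue number, out of 78691 genes in the count table. Of these, 11 stand in cluster A and 9 in each of clusters B, C and D, and every sum, share and rank of HOX genes given here is over these 38. They were followed in 8 RNA-seq libraries of 2 prostate cancer cell lines, with 2 libraries in each of 4 groups, and were read first between the lines and then by the level of MYCL. MYCL encodes L-MYC, a transcription factor of the MYC family that pairs with MAX, and the study asked which programs it drives or maintains in each line.

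C4-2B is a castration-resistant prostate adenocarcinoma line. It carried an empty lentiviral vector in the group C4-2B control, and a lentivirus that expressed MYCL from an EF1A promoter, followed by a GFP reporter, in C4-2B MYCL. NCI-H660 is a neuroendocrine prostate cancer line. It received a non-targeting construct in NCI-H660 shCtrl and a short hairpin RNA against MYCL in NCI-H660 shMYCL, which the series design places in an adenoviral vector while the sample labels speak of stable knockdown. Each lineage was therefore modelled by 1 line, and in the comparison of the 2 control groups the line, the construct and the virus cannot be told apart. The p-values measure the spread between the libraries of a group, and 2 libraries against 2 could reach an exact permutation p of no less than 0.333, so the tests below rest on a model of all genes.

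HOX proteins are transcription factors with a homeodomain that set position along the body axis. Their genes stand in 4 clusters in which low paralogue numbers lie at the 3′ end and high numbers at the 5′ end, and in the embryo the 3′ genes are used earlier and more anteriorly than the 5′ genes. Paralogues with the same number in different clusters are related by duplication. Posterior HOX genes, HOXA13 and HOXD13 among them, are known for their part in forming the urogenital tract and the prostate, and HOX proteins bind DNA together with cofactors of the PBX and MEIS families. In GENCODE 44, on GRCh38, the 11 HOXA genes read here lay at chr7:27092993-27200091 on the minus strand, the 9 HOXB genes at chr17:48528526-48633572 on the minus strand, the 9 HOXC genes at chr12:53938831-54056030 on the plus strand and the 9 HOXD genes at chr2:176092721-176190907 on the plus strand.

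The libraries held between 15177071 and 32344170 counts, and mitochondrial genes took 9.63% to 10.7% of counts in C4-2B and 3.50% to 3.83% in NCI-H660. MYCL had 371 and 320 counts in C4-2B control, 65524 and 70253 in C4-2B MYCL, 1863 and 1602 in NCI-H660 shCtrl and 165 and 198 in NCI-H660 shMYCL (log2 fold changes of 8.26 ± 0.12 in C4-2B and -3.06 ± 0.15 in NCI-H660, ± SE). Of 28 cell type markers, KLK3, KLK2 and FOLH1, genes of androgen-responsive prostate cells, stood at 89.0 TPM (a transcript level, counts per gene length scaled to the same total in every library) or more in every C4-2B library and at 0 in every NCI-H660 library. The neuroendocrine genes INSM1, CHGA and NCAM1 stood at 22.3 TPM or more in every NCI-H660 library and at 0.276 TPM or less in C4-2B. The fibroblast marker DCN was at 0 in all 8 libraries and the leukocyte marker PTPRC at 0.0283 TPM or less, whereas the collagen gene COL1A2 stood at 39.8 and 34.7 TPM in shCtrl, 22.8 and 22.4 TPM in shMYCL and 0 in C4-2B. In such bulk RNA, fewer cells that use a gene and less of its RNA per cell cannot be told apart.

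The lines used different HOX clusters. Over the genes read here, cluster C supplied the largest share of the HOX level in C4-2B control and cluster D none, and in NCI-H660 shCtrl genes of clusters A, B and D were on and cluster C was almost silent apart from HOXC4. The TPM of the 38 genes summed to 74.8 and 77.3 in the C4-2B control libraries and to 483 and 456 in the NCI-H660 shCtrl libraries. Cluster A took 35.1% and 37.6% of that sum in C4-2B control and 49.1% and 48.4% in NCI-H660 shCtrl. Cluster B took 16.4% and 14.0% in C4-2B control and 39.5% and 39.6% in NCI-H660 shCtrl. These 2 clusters were thus used by both lines, at a higher level in NCI-H660. The TPM scale of these sums itself leaned to NCI-H660. After filtering, the median of all genes was 0.57 higher there on log2(TPM + 1), against 0.04 by counts. Cluster C took 48.5% and 48.4% in C4-2B control against 0.444% and 0.387% in NCI-H660 shCtrl, and cluster D took 0 in both C4-2B control libraries against 10.9% and 11.6%. Genes read here of the posterior paralogue groups 9 to 13 took 49.3% and 49.9% of that sum in C4-2B control. In NCI-H660 shCtrl they took 51.5% and 52.1%. These shares rest on different genes, since HOXA9 alone had 133 and 124 TPM in NCI-H660 shCtrl against 0.624 and 0.778 TPM in C4-2B control. Of groups 1 to 8, 7 of 23 genes reached 1 TPM in both C4-2B control libraries and 16 of 23 in both NCI-H660 shCtrl libraries.

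**Figure D1:**
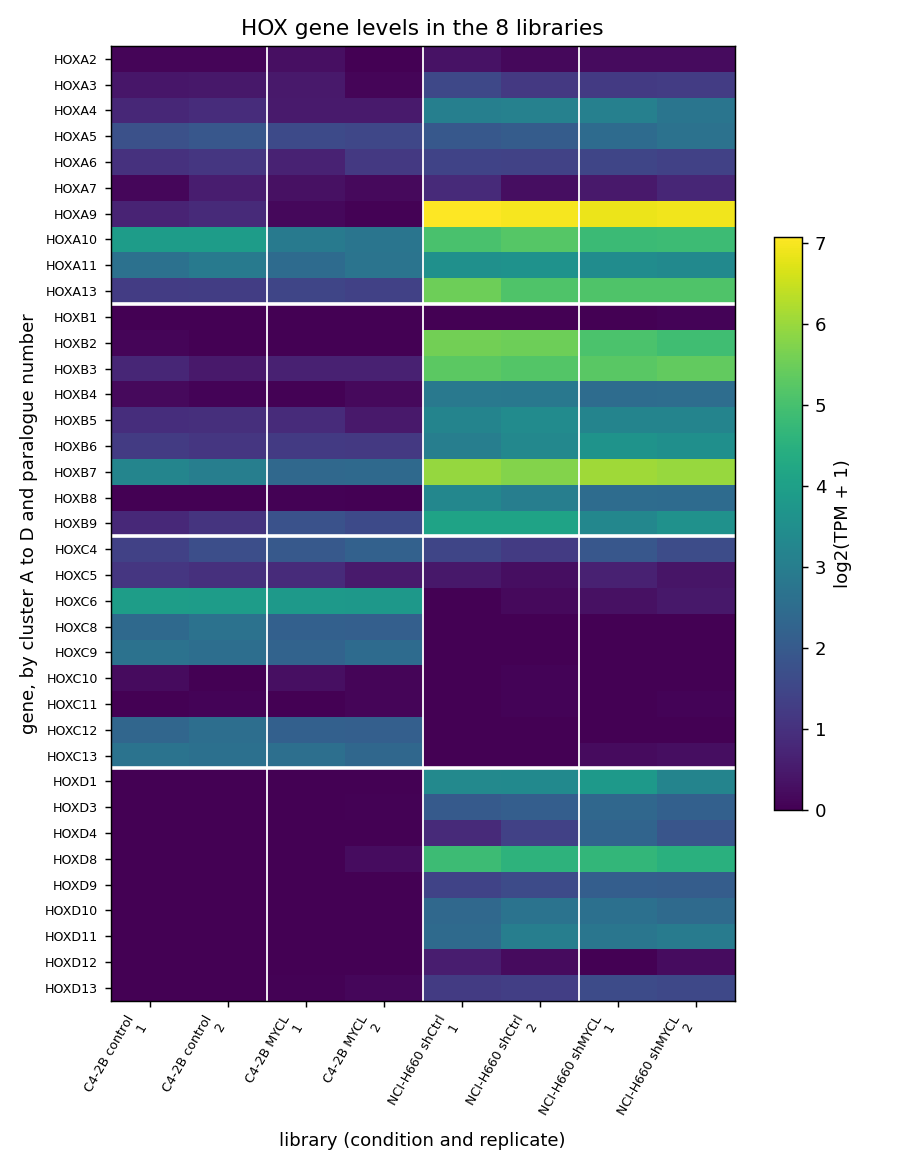
Level of the HOX genes described here (rows, by cluster and paralogue number) in the 8 libraries (columns, by condition and replicate), as log2(TPM + 1) on a colour scale from 0 upward. Cluster C is bright only in the C4-2B columns, apart from HOXC4, which shows in both lines. HOXC5 is faint, and HOXC10 and HOXC11 are near dark in every column. Cluster D is bright only in the NCI-H660 columns, and HOXA9 in NCI-H660 is the brightest row.

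With a gene counted as detected at 1 TPM or more in both libraries of a group, 13 of 38 genes were detected in C4-2B control and 25 in NCI-H660 shCtrl. Both lines had 8 of them, namely HOXA5, HOXA6, HOXA10, HOXA11, HOXA13, HOXB6, HOXB7 and HOXC4. The 5 genes detected in C4-2B control but not in NCI-H660 shCtrl were all of cluster C (HOXC6, HOXC8, HOXC9, HOXC12 and HOXC13). The 17 genes detected in NCI-H660 shCtrl but not in C4-2B control were 4 of cluster A (HOXA3, HOXA4 and HOXA9 among them), 6 of cluster B (HOXB2 to HOXB5, HOXB8 and HOXB9) and 7 of cluster D (HOXD1, HOXD3, HOXD8 to HOXD11 and HOXD13). The remaining 8 reached that level in neither. Some genes under 1 TPM in C4-2B control still had reads there, with 49 and 50 counts at HOXB9, 40 and 30 at HOXB5 and 31 and 28 at HOXA9. Read by paralogue group, C4-2B control detected a gene in 10 of 13 groups, all from 4 to 13, and missed groups 1, 2 and 3, the anterior ones. NCI-H660 shCtrl detected a gene in 12 of 13 groups and missed only group 12, where its HOXD12 had 8 and 4 counts. The same groups were covered after MYCL was raised in C4-2B and after it was knocked down in NCI-H660.

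The order of levels among these genes also differed. In C4-2B control HOXC6 (14.1 ± 0.12 TPM, mean ± SD, n = 2) and HOXA10 (13.9 ± 0.046) led, followed by HOXB7 (7.76 ± 0.87), HOXA11 (5.85 ± 0.95), HOXC13 (5.31 ± 0.28), HOXC9 (5.06 ± 0.34), HOXC8 (4.84 ± 0.66) and HOXC12 (4.45 ± 0.63). From HOXA11 to HOXC12 each gene's range over the 2 libraries overlapped that of the next, so their order is not resolved. In NCI-H660 shCtrl HOXA9 (129 ± 6.3 TPM) stood above HOXB7 (56.8 ± 5.1), which stood above HOXB2 (45.4 ± 1.7), HOXA13 (39.0 ± 7.7), HOXB3 (36.4 ± 1.9) and HOXA10 (34.0 ± 2.8), whose ranges overlapped from each to the next, with HOXD8 (25.2 ± 3.8) and HOXB9 (16.1 ± 0.17) below them.

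**Figure D2:**
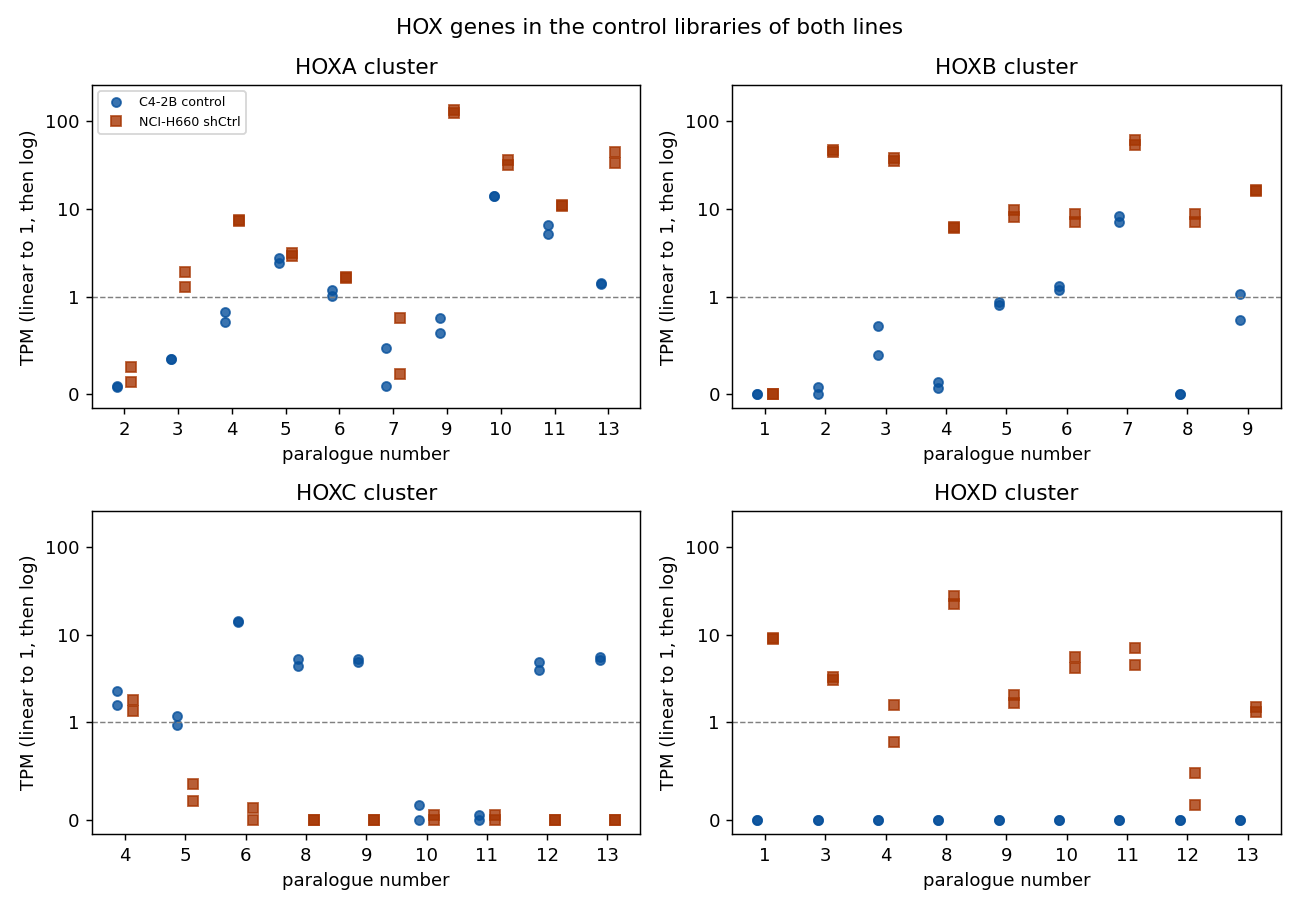
TPM of the HOX genes described here in the 2 C4-2B control libraries (circles) and the 2 NCI-H660 shCtrl libraries (squares), 1 panel per cluster, with the paralogue number on the horizontal axis; the vertical axis is linear up to 1 TPM (dashed line) and logarithmic above it. Squares lie above circles across clusters B and D except at HOXB1, circles lie above squares in cluster C from HOXC6 on except at HOXC10 and HOXC11, and the lines meet in the middle of cluster A.

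By edgeR's quasi-likelihood test on counts, 25 of the 32 HOX genes with enough counts to test differed between the control groups (a call needs an adjusted p under 0.05 and here a log2 difference of 1 or more). Of these, 19 were higher in NCI-H660 and 6 were lower. Of all 18748 genes tested, 55.7% were called by the same rule, 29.8% as higher and 25.9% as lower in NCI-H660, so that a large background of difference stands behind the count. The median log2 difference was 2.43 over the 32 HOX genes, with genes that had no count in one line set at their lower bound, against 0.04 over all genes. By cluster the median was 0.81 in A, 4.42 in B, -5.87 in C and 5.40 in D. The 6 genes not tested were HOXA2, HOXB1, HOXC10, HOXC11, HOXD4 and HOXD12.

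Cluster A was shared in its middle and differed around it. HOXA9, a posterior gene best known from leukaemia, had 0.624 and 0.778 TPM in C4-2B control and 133 and 124 TPM in NCI-H660 shCtrl, which was 6.76 ± 0.15 higher in NCI-H660 (log2 fold change ± SE, adjusted p = 7.91e-12). HOXA13, the most 5′ gene, which patterns the urogenital sinus and the digits, had 1.38 and 1.42 TPM against 44.4 and 33.5 TPM (4.18 ± 0.14, adjusted p = 1.42e-10). The groups did not overlap at either gene (of all genes tested, 46.4% were higher in NCI-H660 without overlap and 43.8% lower), although HOXA10 and HOXA11, which lie between them, differed far less. HOXA10 had 14.0 and 13.9 TPM against 32.1 and 36.0 TPM and HOXA11 had 5.18 and 6.52 TPM against 10.8 and 11.1 TPM, with log2 differences by counts of 0.68 ± 0.12 (adjusted p = 1.94e-04, under the fold minimum) and 0.30 ± 0.16 (adjusted p = 0.111). On the 3′ side, HOXA4, which shares 31.3% of its exon bases with the unnamed gene ENSG00000273433 on its own strand and 14.7% with the antisense HOXA-AS2, was 2.62 ± 0.30 higher in NCI-H660 (adjusted p = 6.71e-06), at 0.740 and 0.846 TPM against 7.23 and 7.56 TPM. HOXA3 was 1.36 ± 0.39 higher (adjusted p = 0.00698), from 25 and 21 counts against 47 and 37. That HOXA3 call was lost when either C4-2B control library or NCI-H660 shCtrl replicate 1 was left out (1.27, 1.45 and 1.12). Here and below, a fit without a library took the other libraries of all 4 groups, while this call took the 2 control groups.

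The remaining cluster A genes tested were not called. HOXA5 had 2.40 and 2.78 TPM in C4-2B control and 2.88 and 3.13 TPM in NCI-H660 shCtrl. It was lower in NCI-H660 by counts (-0.39 ± 0.30, adjusted p = 0.239) but higher on the TPM scale, where the median of all genes moved to 0.57 on log2(TPM + 1) from 0.04 by counts. HOXA6 (-0.02 ± 0.46 by counts, and likewise higher on the TPM scale) and HOXA7 (0.29 ± 0.80) also stayed under the fold minimum, and HOXA2 had 2 to 4 counts in each control library. HOXA7, with 62.5% of its exon bases inside exons of the antisense gene HOXA-AS3, and HOXA6, with 39.3%, are uncertain, because no source used here states whether counting used the strand.

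The 8 cluster B genes read here and tested were all higher in NCI-H660, from 1.86 ± 0.27 at HOXB6 to HOXB2, which had 3 and 0 counts in C4-2B control and 670 and 740 in NCI-H660 shCtrl, a ratio of 665 (95% counting interval 227 to 3230). HOXB2 and HOXB3 are anterior genes known from the hindbrain. HOXB3 had 0.694 and 0.397 TPM against 37.8 and 35.0 TPM (5.29 ± 0.19, adjusted p = 2.20e-10). HOXB8 had no count in C4-2B control and 142 and 135 in NCI-H660 shCtrl, at least 64.0-fold higher when 3 counts are taken as the floor of each library. HOXB4 (5.34 ± 0.42), HOXB9 (3.54 ± 0.21) and HOXB5 (2.64 ± 0.27) lay between. In C4-2B control HOXB7 stood out among them, with 8.37 and 7.15 TPM beside neighbours at 1.33 TPM or less, and it too was higher in NCI-H660 at 60.4 and 53.2 TPM (2.24 ± 0.14, adjusted p = 2.75e-08). HOXB1, the most 3′ gene, had 1 count over all 8 libraries. Leaving out any 1 library ended no cluster B call.

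Cluster C ran the other way. HOXC6, a gene often described in prostate tumours, had 14.2 and 14.0 TPM in C4-2B control from 847 and 591 counts, and 0 and 2 counts in NCI-H660 shCtrl, where it stood at 0.00197 of the C4-2B level (95% counting interval 0.000238 to 0.00712). HOXC8, HOXC9, HOXC12 and HOXC13 had no count in NCI-H660 shCtrl and 119 to 332 counts in each C4-2B control library, which put them at least 58.3-fold, 35.0-fold, 74.8-fold and 62.1-fold higher in C4-2B. Between HOXC9 and HOXC12, the neighbours HOXC10 (7 and 0 counts) and HOXC11 (0 and 3 counts) were close to silent in C4-2B as well, so the expressed run of the cluster had a gap. At the 3′ end of the cluster HOXC4 was detected in both lines, with 1.58 and 2.25 TPM against 1.78 and 1.35 TPM (-0.91 ± 0.37, adjusted p = 0.0408, under the fold minimum). HOXC5 was lower in NCI-H660 (-2.58 ± 0.54, adjusted p = 9.43e-04), from 44 and 26 counts against 5 and 3. GENCODE places 17.5% of the exon bases of HOXC4 inside HOXC6 exons and 67.3% of those of HOXC5 inside exons of the unnamed gene ENSG00000273046, so part of their reads cannot be assigned to them alone.

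Cluster D was silent in C4-2B. All 9 genes had 0 counts in both C4-2B control libraries, which held 32344170 and 23489171 counts, and 7 of the 9 were called higher in NCI-H660. HOXD8 led with 365 counts in each NCI-H660 shCtrl library (27.9 and 22.6 TPM, at least 168-fold higher), and HOXD1, at the 3′ end, followed with 149 and 176 counts (at least 74.7-fold). HOXD3 (at least 59.2-fold), HOXD11 (42.3-fold), HOXD10 (37.5-fold), HOXD13 (15.4-fold) and HOXD9 (15.1-fold) had lower counts and therefore lower bounds. GENCODE places 52.4% of the exon bases of HOXD1 inside an unnamed gene of the opposite strand and 7.69% inside the antisense gene HAGLR, and 24.4% of those of HOXD8 inside HOXD-AS2, and it lets HOXD10 and HOXD11 share 452 bases of 1 strand, so the counts of these genes may hold reads of their partners. The other 2 genes, HOXD4 with 7 and 16 counts and HOXD12 with 8 and 4, did not pass the filter on low counts. HOXD4 (0.799 and 1.56 TPM) lay between HOXD3 at 3.03 and 3.29 TPM and the much higher HOXD8, so the level was uneven along the cluster. The HOXD10 and HOXD11 promoters are printed because the D genes were on together in 1 line only and both windows hold an E-box. An E-box is the site that MYC family dimers bind. RefSeq on GRCh38.p14 gives the 200 bases before each start, in which capitals mark CACGTG. In HOXD11 they also mark a PBX-HOX site, TGATNNAT, which here lies on the opposite strand. The windows of HOXD4, HOXD8 and HOXD12 hold no CACGTG, and binding was not tested.
HOXD10 promoter, chr2:176116578-176116777, plus strand: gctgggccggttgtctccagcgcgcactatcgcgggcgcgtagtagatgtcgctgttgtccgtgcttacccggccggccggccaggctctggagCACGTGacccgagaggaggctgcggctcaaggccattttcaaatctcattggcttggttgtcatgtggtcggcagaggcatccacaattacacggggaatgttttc
HOXD11 promoter, chr2:176107080-176107279, plus strand: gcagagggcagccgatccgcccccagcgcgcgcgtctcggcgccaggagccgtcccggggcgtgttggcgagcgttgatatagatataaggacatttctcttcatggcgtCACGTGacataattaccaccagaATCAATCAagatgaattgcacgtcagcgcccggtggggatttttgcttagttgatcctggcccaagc

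Across the HOX genes, RefSeq windows were at hand for 20 of 38, in 27 windows of which HOXC4 and HOXC5 share 1. Cluster B had a window at HOXB1 only and cluster C at HOXC4 and HOXC5 only. The shares below therefore describe mostly clusters A and D and allow no comparison of clusters. Counted by gene, 8 of 20 (40.0%) had a CACGTG in a window, against 6.739% of 27303 genes. Those 27303 leave out chromosome 8, as do all windows counted here. The 8 HOX genes with CACGTG were HOXA3, HOXA4, HOXA9, HOXD1, HOXD3, HOXD10, HOXD11 and HOXD13. TGATNNAT, searched on both strands, was in a window of 3 HOX genes (15%, against 6.15% of the 27303). The HOX windows had a median of 15 CpG dinucleotides, against 9 in all 35114 windows. These are matches of letters and no measure of binding.

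Of 18 noncoding RNAs listed inside the clusters, 10 had enough counts to test between the control groups. The 7 that were higher in NCI-H660 lie in clusters A, B and D, and the 1 that was lower lies in cluster C, which makes 8 of 10 called beside 55.7% of all genes. HAGLR, which runs antisense beside HOXD1, had 0 and 0 counts in C4-2B control and 1389 and 1444 in NCI-H660 shCtrl, and HAGLROS had 0 and 2 against 99 and 149. HOXD-AS2, at HOXD8, had 0 and 0 counts against 71 and 86. HOXC13-AS went the other way with 32 and 30 counts against 0 and 0. HOTAIR, an antisense RNA of the C cluster known for its link to Polycomb proteins, was near silent everywhere, at 0.196 TPM or less.

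Of 13 genes that flank the clusters 12 were tested, 6 were higher in NCI-H660 and 1 lower, beside 29.8% and 25.9% of all genes, so as a list they were called about as often as genes in general. On the B side SKAP1, an adaptor of T-cell signalling, went with cluster B (0 and 0 counts against 642 and 645), whereas TTLL6, a tubulin glutamylase at the other end, was lower in NCI-H660 (-4.45 ± 0.34, adjusted p = 1.90e-07). Beside the silent C cluster of NCI-H660, CBX5, which encodes the heterochromatin protein HP1 alpha, was 3.04 ± 0.12 higher there (adjusted p = 4.45e-10) at 446 and 352 TPM. EVX1, a homeobox gene beyond the 5′ end of cluster A, was 3.50 ± 0.64 higher (adjusted p = 3.14e-04) from 3 and 1 counts against 15 and 19. MTX2 beside cluster D, at 51.5 and 49.0 TPM in C4-2B control against 63.9 and 77.3 TPM, was not called (-0.05 ± 0.10 by counts, adjusted p = 0.646) although it borders cluster D.

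Cofactors and inputs of HOX genes were read by the same rule. Of 9 cofactors of the TALE homeodomain class, all tested, 5 were higher in NCI-H660 and 1 lower, a share near the 55.7% of all genes. MEIS2 had 0 and 0 counts against 138 and 131, MEIS3 was 6.57 ± 0.34 higher (adjusted p = 5.54e-09) and PKNOX2 was lower (-4.10 ± 0.65, adjusted p = 1.05e-04). Retinoic acid induces 3′ HOX genes in many cells, and of 18 genes of its handling and of the CDX family 13 were tested, 8 were higher in NCI-H660 and 3 lower, beside the same 55.7%. The retinoid carrier CRABP1 (0 and 0 counts against 756 and 890) and the retinaldehyde dehydrogenase ALDH1A1 (0 and 1 against 1516 and 1478) were high in NCI-H660, and the related enzyme ALDH1A3 (2175 and 1643 against 0 and 0) was high in C4-2B. Among 21 chromatin regulators of HOX genes, Polycomb and Trithorax members for the most part, 2 were higher (KMT2B 2.26 ± 0.11, SUZ12 1.03 ± 0.089) and 1 lower (KDM6A, an H3K27 demethylase, by -1.77 ± 0.090), which is 3 of 21 beside the 55.7% of all genes. The SUZ12 value fell under the fold minimum, to 0.97, without NCI-H660 shCtrl replicate 1.

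**Figure D3:**
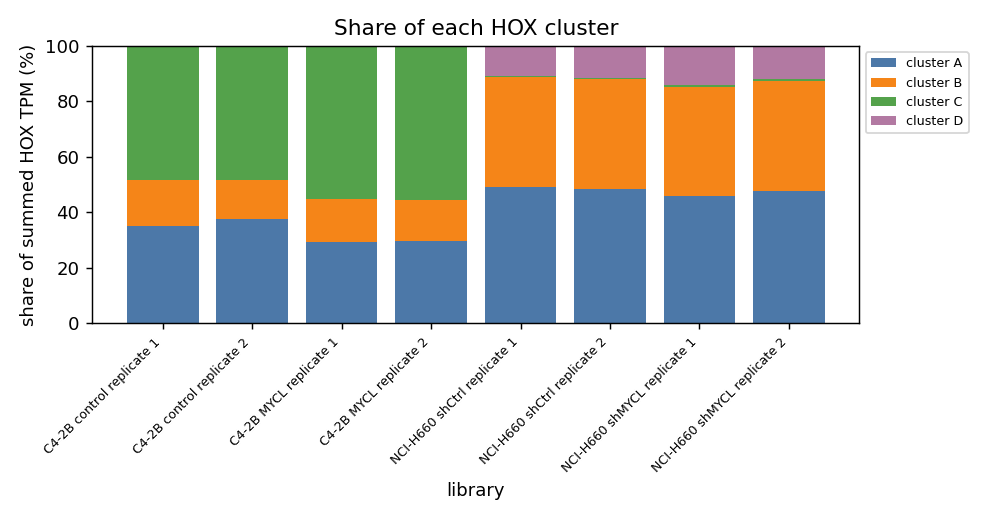
Share of the summed TPM of the 38 HOX genes that each cluster supplied in each of the 8 libraries, in percent, as stacked bars from 0 to 100. Cluster C makes up 48.4% to 55.2% of the C4-2B bars and under 1% of the NCI-H660 bars, and cluster D appears only as a visible share in NCI-H660.

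When MYCL was raised in C4-2B, the pattern of clusters stayed and 5 genes moved. HOXA9, HOXA10 and HOXB7 fell, and HOXB9 and HOXC4 rose. Of the 38 genes 21 had enough counts to test, and 23.8% of these passed, with a minimum of 0.5 on the log2 fold change and the same limit on the adjusted p, beside 19.9% of all 16866 genes tested (11.8% higher, 8.12% lower). The median log2 change was -0.14 over the 21 HOX genes and -0.00 over all genes. The summed HOX TPM was 59.7 and 58.6 in C4-2B MYCL against 74.8 and 77.3 in control, on a scale where the median gene also moved, by -0.14.

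HOXA10, a posterior gene of the reproductive tract, had 878 and 634 counts in C4-2B control and 250 and 220 in C4-2B MYCL, and its level fell from 14.0 and 13.9 TPM to 6.60 and 5.72 TPM, with no overlap. By counts it fell by 1.04 on the log2 scale (SE 0.10, adjusted p = 1.65e-04). HOXA9, next to it, had 31 and 28 counts against 3 and 1, and fell by 3.19 (SE 0.66, adjusted p = 0.00573); with so few counts the ratio of MYCL to control was 0.106 (95% counting interval 0.0280 to 0.287). Both calls held under each alternative that could test them. Their neighbours 5′ of HOXA10 were not called, with HOXA11 at -0.06 ± 0.17 (adjusted p = 0.820) and HOXA13 at 0.42 ± 0.18 (adjusted p = 0.104). The antisense transcript HOXA10-AS, which shares 16.4% of the exon bases of HOXA10 and 13.9% of those of HOXA9, fell by 1.43 (SE 0.19, adjusted p = 7.44e-04), from 312 and 250 counts to 60 and 73. Its part in the counts of HOXA9 and HOXA10 was not tested, and a further 13.1% of HOXA9 exon bases lie in a transcript that reads through from HOXA10. The promoters of both genes are printed because they fell together. The HOXA9 window holds a CACGTG, in capitals. HOXA10 has a further window, at chr7:27179862-27180061, that is not printed. Both HOXA10 windows hold neither of the motifs searched.
HOXA9 promoter, chr7:27165538-27165737, minus strand: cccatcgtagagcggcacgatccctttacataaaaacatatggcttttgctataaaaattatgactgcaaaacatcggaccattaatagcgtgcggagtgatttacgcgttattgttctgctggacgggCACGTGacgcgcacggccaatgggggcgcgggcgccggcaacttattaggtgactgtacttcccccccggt
HOXA10 promoter, chr7:27174321-27174520, minus strand: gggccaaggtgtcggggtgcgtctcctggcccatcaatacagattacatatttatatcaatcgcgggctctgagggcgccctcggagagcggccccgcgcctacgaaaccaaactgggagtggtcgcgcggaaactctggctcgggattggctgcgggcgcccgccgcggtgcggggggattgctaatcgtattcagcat

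HOXB7 fell by 0.72 (SE 0.20, adjusted p = 0.0234), from 8.37 and 7.15 TPM to 4.19 and 4.34 TPM. DESeq2 gave the same change an adjusted p of 0.0651. HOXB9, from which HOXB8 separates it, rose by 1.42 (SE 0.29, adjusted p = 0.00521), from 49 and 50 counts to 94 and 78 counts in smaller libraries, or 0.764 and 1.07 TPM to 2.44 and 1.99 TPM. The groups of neither gene overlapped (34.5% of all genes tested were higher and 34.7% lower without overlap), so genes close together in the cluster moved in opposite directions. HOXC4 rose by 0.93 (SE 0.29, adjusted p = 0.0361), from 1.58 and 2.25 TPM to 2.96 and 3.57 TPM. The HOXC4 call did not survive leaving out any of the 4 libraries (0.68 to 1.19, adjusted p = 0.0558 to 0.283).

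Most of cluster C, which had the largest share of the summed HOX level in C4-2B, was not called. HOXC6 had 14.2 and 14.0 TPM in control and 13.2 and 12.6 TPM in C4-2B MYCL (0.03 ± 0.093 by counts, adjusted p = 0.813), and HOXC13 had 5.50 and 5.11 TPM against 4.95 and 4.15 TPM (-0.08 ± 0.15, adjusted p = 0.705). HOXC8 (-0.35 ± 0.17, adjusted p = 0.144), HOXC9 (-0.14 ± 0.23) and HOXC12 (-0.22 ± 0.15) had small negative values that missed the threshold. Cluster D stayed at or under 3 counts in every C4-2B MYCL library. The counts that appeared were 1 and 2 at HOXD3, 0 and 3 at HOXD8 and 1 and 3 at HOXD13. None of these genes passed the filter on low counts here, but the fit of all 4 groups called HOXD13 higher.

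When MYCL was knocked down in NCI-H660, 3 genes fell, all in cluster B: HOXB2, HOXB8 and HOXB9. These were 11.1% of the 27 genes tested, beside 16.2% of all 16980 genes (7.18% higher, 8.99% lower). No HOX gene was called higher in this fit or by DESeq2, whereas edgeR called HOXD4 higher with no filter on low counts or with a replicate block, and HOXC6 and HOXC13 higher in the fit of all 4 groups. At an unadjusted p under 0.05 edgeR counted 9 genes, 4 of them higher. The median log2 change was -0.04 over the 27 genes and -0.00 over all genes. HOXB8 had 142 and 135 counts in shCtrl and 58 and 51 in shMYCL, or 8.68 and 7.12 TPM against 4.67 and 4.59 TPM, and fell by 1.15 (SE 0.24, adjusted p = 0.00242). HOXB9 had 379 and 447 counts against 190 and 248, or 16.0 and 16.3 TPM against 8.73 and 11.0 TPM, and fell by 0.72 (SE 0.15, adjusted p = 0.00259). HOXB2 had 46.6 and 44.2 TPM against 32.8 and 28.8 TPM and fell by 0.57 (SE 0.12, adjusted p = 0.00351). In all 3 genes the libraries of the 2 groups did not overlap, and of all genes tested 32% were lower without overlap. The calls were fragile: HOXB2 and HOXB8 lost theirs without any 1 of the 4 libraries (adjusted p up to 0.168 and 0.149), and HOXB9 lost its call without shCtrl replicate 2 or shMYCL replicate 1 (adjusted p = 0.0715 and 0.134). In limma fits on the TPM values 0 of the 3 were called.

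**Figure D4:**
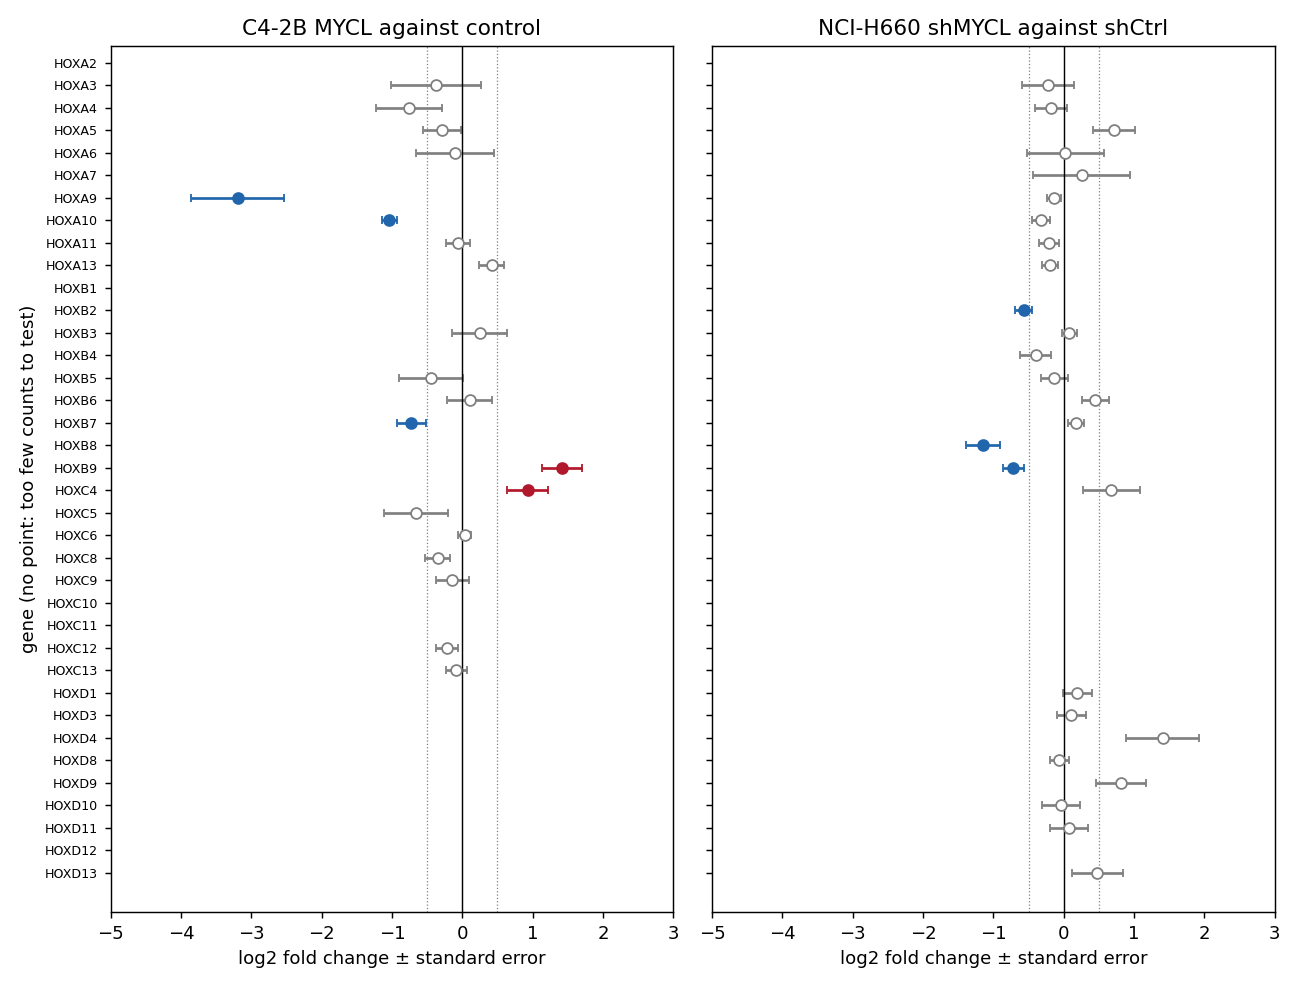
Log2 fold change with its standard error of the HOX genes described here that had enough counts to test, for C4-2B MYCL against control (left) and NCI-H660 shMYCL against shCtrl (right), in cluster order; filled points are called (red higher, blue lower), open grey points are not, and dotted lines mark 0.5 in each direction. HOXA9, HOXA10 and HOXB7 lie to the left and HOXB9 and HOXC4 to the right in C4-2B, and HOXB2, HOXB8 and HOXB9 lie to the left in NCI-H660.

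Of the 8 HOX genes with the highest levels in NCI-H660 shCtrl, HOXB2 and HOXB9 were called. HOXA9 had 133 and 124 TPM in shCtrl and 116 and 120 TPM in shMYCL (-0.14 ± 0.10, adjusted p = 0.350). HOXB7 had 60.4 and 53.2 TPM against 66.4 and 62.4 TPM (0.18 ± 0.12, adjusted p = 0.289), and HOXA13 and HOXB3 had values of -0.19 ± 0.12 and 0.08 ± 0.10. HOXA10 had 32.1 and 36.0 TPM against 27.3 and 27.8 TPM (-0.32 ± 0.12, adjusted p = 0.0646). HOXB6, which with HOXB7 lies next to the called pair HOXB8 and HOXB9, had a positive value (0.45 ± 0.20, adjusted p = 0.105). Of the 8 tested genes of cluster D, 6 had positive values, the largest at HOXD4 (1.41 ± 0.52, adjusted p = 0.0587), with 7 and 16 counts in shCtrl and 31 and 22 in shMYCL, and at HOXD9 (0.82 ± 0.35, adjusted p = 0.101).

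A few counts appeared in the silent C cluster after knockdown. HOXC6 had 0 and 2 counts in shCtrl and 6 and 5 in shMYCL, a ratio of 6.32 (95% counting interval 1.38 to 58.6), and HOXC13 had 0 and 0 counts against 3 and 4, at least 1.33-fold higher. Neither passed the filter on low counts in this comparison. In the fit of all 4 groups, which tested 33 genes, both were called higher, as was HOXC6 without shCtrl replicate 2 and HOXC13 without shMYCL replicate 1. Both stayed at 0.373 TPM or less, beside 12.6 TPM or more for HOXC6 in every C4-2B library.

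HOXB9 was the 1 gene called in both comparisons of MYCL level, among 15 that could be tested in both. Of all 14212 genes tested in both, 4.19% were called in both and 1.80% were higher with more MYCL in each line, so 1 of 15 is no more than a description of HOXB9. It was higher with more MYCL in C4-2B and lower with less MYCL in NCI-H660, so in each line the higher HOXB9 level went with the higher MYCL level. The 2 comparisons share no library. Both levels remained apart by line, at 2.44 TPM or less in C4-2B and 8.73 TPM or more in NCI-H660. Another 4 genes were called in C4-2B only and 2 in NCI-H660 only. Of the last 2, HOXB2 and HOXB8 had 3 counts or fewer in each C4-2B library.

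**Figure D5:**
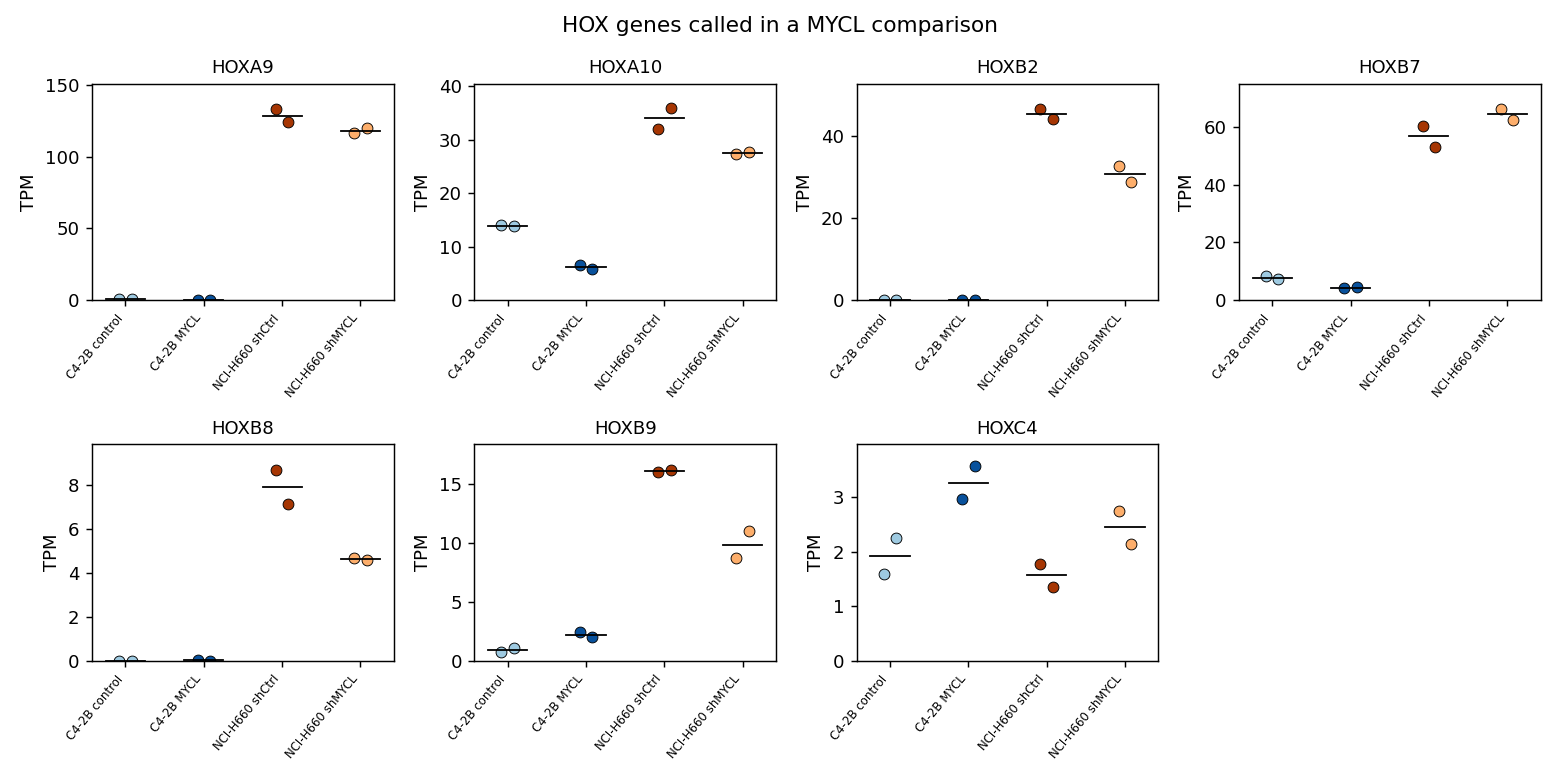
TPM in each library (points) and group mean (short lines) for the 7 HOX genes called in a MYCL comparison, with the 4 groups on the horizontal axis and each vertical axis starting at 0. HOXB9 is higher in the group with more MYCL in each line, HOXA10 is lower in C4-2B MYCL than in control, and HOXB2 and HOXB8 are near 0 in both C4-2B groups.

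Whether a MYCL effect differed between the lines was tested directly. The value is the effect of raising MYCL in C4-2B minus the effect of having MYCL rather than its knockdown in NCI-H660. The line, the direction and size of the MYCL change and the construct cannot be told apart in this test. Of 33 genes tested, 6 were called (18.2%), beside 20.2% of all 19605 genes. HOXA10 differed by -1.36 ± 0.16 (adjusted p = 1.29e-04) and HOXA9 by -3.31 ± 0.48 (adjusted p = 4.80e-04), where the values within each line were -1.04 and -3.19 for raising MYCL in C4-2B and -0.32 and -0.14 for its knockdown in NCI-H660. HOXC4 differed by 1.60 ± 0.48 (adjusted p = 0.0332). HOXC6, HOXC13 and HOXD13 were also called, from at most 6 counts in each library of the line where the gene is silent. The HOXC6 and HOXD13 calls were each lost without 7 of the 8 libraries taken 1 at a time, HOXC4 without 5 and HOXC13 without 3. HOXB7 (-0.55 ± 0.19, adjusted p = 0.0574) and HOXB9 (0.71 ± 0.28, adjusted p = 0.0997) missed the threshold.

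The related lists were read by MYCL level too, beside the 19.9% of all genes called in C4-2B MYCL and the 16.2% in NCI-H660 shMYCL, and with so few genes a list the counts are given as a description. In C4-2B, 2 of 7 tested cofactors fell, MEIS1 by 1.18 (SE 0.12, adjusted p = 1.84e-04), from 9.42 and 8.15 TPM to 3.89 and 3.51 TPM, and PBX3 by 1.03 (SE 0.17, adjusted p = 0.00188), from 4.56 and 5.07 TPM to 2.03 and 2.17 TPM. MEIS1 and PBX3 are partners of HOXA9, which fell with them, and neither call was lost by leaving out a library. In NCI-H660 shMYCL 1 of 8 tested cofactors fell, a call lost to the fold minimum without shCtrl replicate 1. Of 10 tested noncoding RNAs of the clusters, 2 fell on knockdown. HOTTIP, at the 5′ end of cluster A, went from 204 and 189 counts to 77 and 111 (-0.87 ± 0.21, adjusted p = 0.00657), a call lost without any 1 of the 4 libraries (adjusted p up to 0.254). HOXA11-AS went from 141 and 183 counts to 50 and 69 (-1.24 ± 0.23, adjusted p = 0.00123), a call lost without shCtrl replicate 2 or shMYCL replicate 1, while HOXA11, with which it shares 27.2% of exon bases, had a value of -0.21 ± 0.15 (adjusted p = 0.324).

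Among the chromatin regulators, 3 of 21 rose and 2 fell in C4-2B MYCL. KDM6B, an H3K27 demethylase, rose by 0.73 ± 0.097 and CTCF, which insulates the HOX clusters, fell by 0.75 (SE 0.081), from 33.5 and 33.2 TPM to 16.6 and 18.3 TPM (adjusted p = 2.51e-04). In NCI-H660 shMYCL 3 of 21 rose, led by DOT1L, an H3K79 methyltransferase (0.83 ± 0.11, adjusted p = 8.29e-05), and followed by CBX2 (0.60 ± 0.11). Of the retinoid genes, CRABP1 fell by 1.00 (SE 0.12, adjusted p = 3.54e-05) on knockdown, from 161 and 162 TPM to 81.5 and 81.2 TPM, 2 of 12 tested fell and CYP26B1 rose. The CYP26B1 call was lost without any 1 of the 4 libraries (adjusted p = 0.0817 to 0.240), and CYP26A1, the other gene that fell, lost its call without 3 of them. In C4-2B MYCL 1 of 9 fell, RARB, by 0.77 (SE 0.23, adjusted p = 0.0299), a call lost without any 1 of the 4 libraries (adjusted p up to 0.311). Of the flanking genes, 1 of 11 rose and 3 fell in NCI-H660 shMYCL, SNX10 rising by 0.84 ± 0.11 and CALCOCO1 falling by 0.70 (SE 0.11), while in C4-2B MYCL 2 of 10 rose, SNX10 by 0.73 ± 0.15 and CALCOCO1 by 0.81 ± 0.10. CALCOCO1, beside the C cluster, was thus higher in the group with more MYCL in each line, and SNX10, beside the A cluster, rose in both comparisons. DOT1L, CBX2, CRABP1, SNX10 and CALCOCO1 missed the adjusted p limit in NCI-H660 shMYCL under some alternative that kept all libraries. KDM6B, SNX10 and CALCOCO1 did so in C4-2B MYCL. Of the cell type markers 16 were tested in each line. In C4-2B MYCL 2 were called higher and 2 lower, KLK3 (-0.52 ± 0.067) among the latter. In NCI-H660 shMYCL 1 was called higher and 4 lower, INSM1 (-0.65 ± 0.11) among the latter. The part of these markers in the HOX results was not tested.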

How the data were processed

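RNA-seq libraries of poly(A) RNA were sequenced in paired-end mode, and per the labels the reads were placed on hg38. The aligner, the counting program and its use of strand are not given in the sources used here. The authors deposited estimated counts for 78691 genes, of which 34.4% of non-zero values were not whole (tolerance 0.0005) and which were rounded here, and TPM values (deposited by the authors, counts per gene length scaled to the same total in every library) for 65535 genes. Groups came from the sample labels.

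Counts were tested with edgeR 4.0.16 (quasi-likelihood, TMM scaling, filterByExpr, Benjamini-Hochberg adjustment over all genes tested) in R 4.3.3. The SE of a log2 change was worked back from its test, as the size of the change divided by the square root of the F value. Genes were called below 0.05 on the adjusted p when the log2 change in either direction reached 1 between lines or 0.5 within a line, and the difference between the lines in the MYCL effect needed the adjusted p alone, in 1 fit of all 4 groups. A group at 0 counts was set at a floor of 3 counts per library for lower bounds, and intervals are 95% counting intervals that cover counting error only. Alternatives were DESeq2 1.42.0, limma 3.58.1 on log2(TPM + 1) and log2(TPM + 0.1), other filters and minimums, a replicate block and leaving out each library. Fits without a library took the other libraries of all 4 groups. Their filter, scaling and model of spread thus also differ from those of the fits of 2 groups. The steps were tested on simulated data.

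Genes were named where detected or called, and from the related lists up to 4 called genes with the largest change were named per list and comparison. The members and lists were chosen with earlier results of these data known. The HOX genes were all found by identifier in GENCODE 44, and promoter windows are from RefSeq (GRCh38.p14). Some genes, HOX genes among them, are not reported here. Figures were drawn with matplotlib 3.10.9.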

Additional observations from a re-analysis of the deposited data

Results flagged for a closer look

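For 6 HOX genes the effect of MYCL differed between the lines by a direct test. The value was taken as C4-2B MYCL minus control less NCI-H660 shCtrl minus shMYCL, on the log2 scale with edgeR's adjusted p. The line cannot be told apart here from the construct or from the direction and size of the MYCL change. HOXA10 differed by -1.36 ± 0.16 (SE, adjusted p = 1.29e-04) and HOXA9 by -3.31 ± 0.48 (adjusted p = 4.80e-04), where HOXA9 rests on 31 and 28 against 3 and 1 counts in C4-2B. HOXC4 differed by 1.60 ± 0.48 (adjusted p = 0.0332), with 62 and 64 counts in C4-2B control, 70 and 86 in C4-2B MYCL, 26 and 22 in shCtrl and 37 and 30 in shMYCL. The HOXC4 value missed the threshold without C4-2B control replicate 1, C4-2B MYCL replicate 2, either shCtrl library or shMYCL replicate 1 (adjusted p = 0.114, 0.105, 0.0539, 0.0990 and 0.114).

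The other 3 genes are nearly silent in 1 of the lines. HOXC6 differed by 2.56 ± 0.80 (adjusted p = 0.0399), with 0 and 2 counts in shCtrl and 6 and 5 in shMYCL, and was lost without 7 of the 8 libraries taken 1 at a time, with values from 1.68 to 5.79. HOXC13 differed by 5.03 ± 1.27 (adjusted p = 0.0155), with 0 and 0 counts against 3 and 4, and was lost without 3 libraries (either shCtrl library or shMYCL replicate 2). HOXD13 differed by 4.77 ± 1.5 (adjusted p = 0.0423), with 0 and 0 counts in C4-2B control and 1 and 3 in C4-2B MYCL, and was lost without any library but C4-2B MYCL replicate 1 (3.84 to 5.40). These 3 sizes, and the SEs taken from them, depend on the small count that edgeR adds before taking logs. The sizes are no measure of fold, and on log2(TPM + 1) they were 0.18, 0.05 and 0.38.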

How the results depend on the processing

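Between the lines, the 19 higher and 6 lower HOX genes became 9 and 0 when at least 10 counts were asked in every library, which removes the genes that are silent in 1 line by construction; leaving out each library gave 19 to 20 higher and 6 to 7 lower. In C4-2B MYCL the 2 higher genes were 1 with DESeq2, with limma on log2(TPM + 1) or log2(TPM + 0.1) after filtering and with a larger fold minimum, 0 with limma on log2(TPM + 1) without a filter, and 1 to 3 when a library was left out (3 without C4-2B MYCL replicate 1, 1 without any of the others), while 3 genes stayed lower each time a library was left out. In NCI-H660 shMYCL the 0 higher genes were 1 with no filter on low counts, 2 in the fit of all 4 groups and 0 to 1 when a library was left out (1 without shCtrl replicate 2 or shMYCL replicate 1). The 3 lower genes were 0 in each of the 3 limma fits on TPM, 1 with a larger fold minimum and 0 to 1 when a library was left out (0 without shCtrl replicate 2 or shMYCL replicate 1, 1 without either of the others). The 6 genes whose MYCL effect differed between the lines were 3 with DESeq2, 3 with at least 10 counts in every library and 2 to 6 when a library was left out (2 without shCtrl replicate 1, 3 without C4-2B control replicate 1, C4-2B MYCL replicate 2, shCtrl replicate 2 or either shMYCL library). With more than 3 counts in place of 1 TPM, 22 HOX genes were detected in C4-2B control and 21 in C4-2B MYCL in place of 13 each. The NCI-H660 groups gained fewer genes by this rule, so the lines differed less in genes detected than at 1 TPM. The difference between the lines for the noncoding RNA HAGLR, 4.78 by counts, was -0.0939 with limma on log2(TPM + 1). Apart from what the construction of a setting shows, the cause was not tested.

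Over the called HOX genes and their alternatives, 8 of 357 values between the lines lost the call, 12 of 72 in C4-2B MYCL, 21 of 45 in NCI-H660 shMYCL and 29 of 80 for the difference between the lines, and 0 changed direction. Replicate numbers are shared by all groups, but the labels tie them to no common batch or day, and the deviations of same-numbered libraries correlated at 0.039, -0.075 and 0.031 across genes in the 3 comparisons. With a replicate block the counts were 19 higher and 6 lower between the lines, 2 and 3 in C4-2B MYCL, 1 (HOXD4) and 4 in NCI-H660 shMYCL and 5 for the difference between the lines. Libraries of 15177071 counts or more leave genes under 3 counts unresolved.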
